A study of Homo sapiens with 10 samples.

Results

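The aryl hydrocarbon receptor (AHR) and 8 genes of the xenobiotic response were followed through 10 mRNA-sequencing libraries of BEAS2B, a line of human bronchial epithelial cells. The members were AHR, AHRR, ARNT, CYP1A1, CYP1B1, TIPARP, ALDH3A1, AKR1C1 and AKR1B10, which are 9 of the 52402 gene symbols in the count tables, and each was taken by its symbol. Cells were transfected with a scrambled control (Con), a miR-3124-5p mimic (miR3124), a miR-200b-3p mimic (miR200b), an inhibitor of miR-92b (miR92b_in) or all 3 agents together (MIX), with 2 libraries in each of the 5 groups. The single agents were used at 50 nM and RNA was collected 48 h after transfection. All groups share the cell line and the lipid transfection reagent. No AHR ligand is named in the labels. The amount of each agent in MIX and the arm of miR-92b that the inhibitor blocks are not given there either. The labels do not state if replicates came from different transfections, so the p-values measure only the spread between these libraries, which may be technical.

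AHR is a ligand-activated transcription factor that rests in the cytosol with HSP90 chaperones. When it binds a ligand such as a dioxin, a polycyclic hydrocarbon of tobacco smoke or a tryptophan metabolite, it enters the nucleus, pairs with ARNT and binds DNA at the core word GCGTG. Its targets include CYP1A1 and CYP1B1, which oxidize the foreign compound, and AHRR and TIPARP, which act back on AHR as repressors. In airway epithelium these genes, together with ALDH3A1, AKR1C1 and AKR1B10, are known as part of the response to cigarette smoke.

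The members did not move as a block against Con in miR200b, miR92b_in or MIX, where some were higher and others lower. In miR3124, 3 of the 6 members tested were higher, 0 were lower and 3 were not called. That is 50% called, close to the 51% of all genes tested that were called in this group. For AHR, CYP1A1, CYP1B1 and AHRR the largest difference from Con was in miR200b, where AHRR was lower and the others higher. In miR3124 AHRR was higher, and so was CYP1A1, though that call was lost in several alternatives. TIPARP was higher than in Con in each of the other 4 groups by a small amount. ALDH3A1, AKR1C1 and AKR1B10 were near or at 0 counts in every library.

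The mature sequences of the miRNAs are shown because the mimics act through their seed, bases 2 to 8, which is printed in capitals. They come from RefSeq (GRCh38.p14), and both arms of miR-92b are given. No seed is shared among the 4 sequences.
hsa-miR-3124-5p (chr1:248826383-248826403, plus strand): uUCGCGGGcgaaggcaaaguc
hsa-miR-200b-3p (chr1:1167160-1167181, plus strand): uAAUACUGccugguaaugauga
hsa-miR-92b-5p (chr1:155195196-155195217, plus strand): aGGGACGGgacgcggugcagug
hsa-miR-92b-3p (chr1:155195237-155195258, plus strand): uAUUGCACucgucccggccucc

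The reverse complement of each seed was searched on the sense strand of the 3′ untranslated region of the longest coding transcript (GENCODE v29). The word for miR-200b-3p, CAGTATT, occurred at 1 place in AHR and at 2 places in CYP1B1, and in none of the other 7 members. Of the 3′ untranslated regions of 12110 tested genes, 19.7% held it. The word for miR-92b-5p, CCGTCCC, occurred at 1 place each in AHRR and ARNT, and in 4.23% of the regions searched. The words for miR-3124-5p (CCCGCGA, in 0.628% of the regions) and for miR-92b-3p (GTGCAAT, in 13.2%) were found in none of the 9 members. The matches are shown with their flanks, the word in capitals. A match is a description of the letters, not a site known to be bound. Whether these words have a part in the differences between groups was not tested.
AHR, miR-200b-3p word at bases 2868 to 2874 of 3086: tgaagacttacCAGTATTctagtgtatta
CYP1B1, miR-200b-3p word at bases 350 to 356 of 3215: actgaatgaagCAGTATTttggtaaccag
CYP1B1, miR-200b-3p word at bases 2080 to 2086 of 3215: aaaaatcatgcCAGTATTtttaaaggcat
AHRR, miR-92b-5p word at bases 317 to 323 of 3457: gcagcgagcacCCGTCCCatggctgccaa
ARNT, miR-92b-5p word at bases 1037 to 1043 of 2316: tcttggattagCCGTCCCagtgaaaatcc

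Promoter windows from 250 bases before to 50 bases after a start were available for 6 members. GCGTG or its reverse complement CACGC occurred in 36.5% of all 35116 windows of this length. The windows of CYP1A1 and of the first AHRR start are printed because both genes are AHR targets and their group means spanned the widest range among the 6 members tested. Each held the word at 1 place, shown in capitals, which begins 57 bases before the start in CYP1A1 and 30 bases before it in AHRR. AHR had 1 such word, a second AHRR window 2 and the first of 3 TIPARP windows 2, and none was found in the windows of ARNT and AKR1C1. A window without the word says nothing about sites elsewhere.
CYP1A1 (chr15:74725479-74725778, GRCh38.p14, minus strand): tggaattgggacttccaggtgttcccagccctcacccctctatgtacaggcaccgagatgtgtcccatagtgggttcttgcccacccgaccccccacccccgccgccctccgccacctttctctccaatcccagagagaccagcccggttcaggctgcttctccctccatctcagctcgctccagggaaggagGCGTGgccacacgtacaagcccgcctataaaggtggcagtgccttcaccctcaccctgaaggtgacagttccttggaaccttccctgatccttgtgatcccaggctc
AHRR (chr5:321464-321763, GRCh38.p14, plus strand): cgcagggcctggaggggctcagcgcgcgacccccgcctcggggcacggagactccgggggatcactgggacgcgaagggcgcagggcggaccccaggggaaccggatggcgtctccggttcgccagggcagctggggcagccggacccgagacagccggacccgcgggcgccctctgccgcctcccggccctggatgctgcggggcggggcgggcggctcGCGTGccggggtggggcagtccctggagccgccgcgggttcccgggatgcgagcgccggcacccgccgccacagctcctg

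The libraries held 13587666 to 18503890 counts. Levels are given as normalized CPM, which are counts scaled to the size of the library. The filter of edgeR on low counts kept 14884 genes for testing, 6 of the members among them. The libraries of a pair differed by more than counting error (chi-square per degree of freedom of 1.75 to 2.63). The identity of the cells was checked with marker lists. Epithelial keratins KRT8 and KRT18 were abundant, and so were VIM and FN1, which mark mesenchymal cells. Other markers of both lists were at or near 0 in Con. Epithelial examples were CDH1 (mean 0.146 CPM), EPCAM (0.289 CPM) and KRT5 (0.174 CPM). Mesenchymal examples were COL1A2 (0.148 CPM), COL3A1 (0.0286 CPM) and DCN (0 CPM). None of 10 markers of secretory and ciliated airway cells passed the filter, and 5 of them, SCGB1A1 among these, were at 0 in every library. The 10 together reached at most 0.299 CPM in a library, so the defining transcripts of differentiated airway cells were at or near 0. In bulk RNA, fewer cells that express a gene and less RNA per cell cannot be told apart.

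Compared per kilobase of annotated exons, the receptor and its repressor TIPARP were the most abundant members in Con. TIPARP had 20.7 CPM per kb and AHR 13.9. CYP1B1 (7.26 CPM per kb) and the dimer partner ARNT (7.17 CPM per kb) followed, then AHRR (3.34 CPM per kb). CYP1A1 was far below them at 0.349 CPM per kb. AKR1B10, AKR1C1 and ALDH3A1 had 0.0499, 0.0299 and 0 CPM per kb. Exon lengths were taken from GENCODE v29, which may not be the annotation behind the counts.

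**Figure D1:**
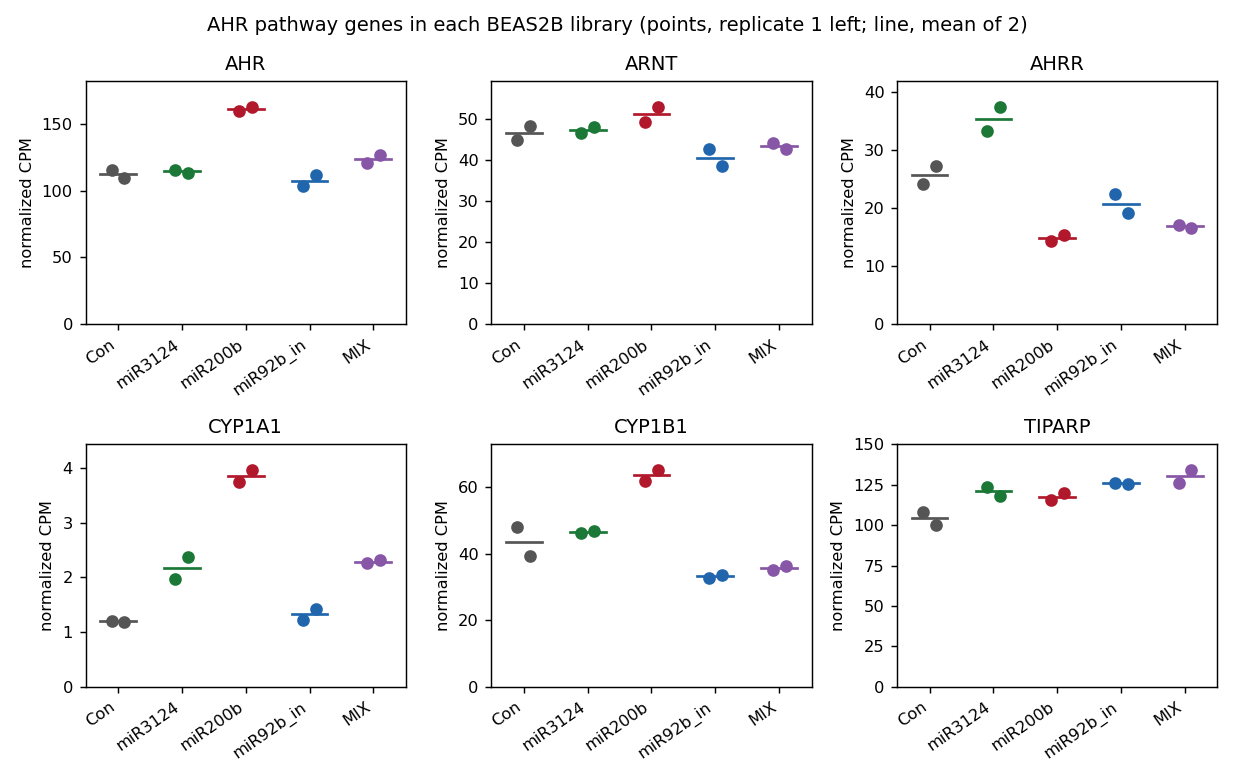
Normalized CPM (vertical axis, from 0) of the 6 members that passed the filter in each library, by group. Points are libraries with replicate 1 on the left, and lines are the means of 2. AHR, CYP1A1 and CYP1B1 were highest in miR200b, AHRR was highest in miR3124 and lowest in miR200b, and all TIPARP points of the other 4 groups lie above both Con points.

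AHR, the receptor (chromosome 7, 17298652 to 17346147), was measured at 116 and 109 CPM in Con, 115 and 113 CPM in miR3124, 160 and 163 CPM in miR200b, 103 and 112 CPM in miR92b_in, and 121 and 127 CPM in MIX. Both miR200b libraries lay well above the other 8, and the MIX libraries lay above both Con libraries. AHR was 1.43-fold higher in miR200b than in Con (log2 fold change 0.52 ± 0.05 SE, edgeR adjusted p = 2.91e-13). Its 3′ untranslated region holds the miR-200b-3p word shown above, and AHR was higher, not lower, in the group given that mimic. Whether the word has any effect on AHR was not tested. The AHR difference from Con was 0.14 ± 0.05 in MIX (adjusted p = 0.0135). Without Con replicate 2 the MIX value was 0.10 (adjusted p = 0.214), and without MIX replicate 2 it was 0.10 (adjusted p = 0.175), so that call rests on those libraries. In miR3124 (0.02, 95% confidence interval -0.07 to 0.12) and miR92b_in (-0.06, interval -0.16 to 0.03) the level of AHR was not distinguished from that of Con. In the order of levels, miR200b exceeded MIX (adjusted p = 1.69e-09) and MIX exceeded miR3124 (adjusted p = 0.0381, a call lost in several alternatives), while miR3124, Con and miR92b_in were not distinguished from each other as neighbours.

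ARNT, the nuclear partner of AHR (chromosome 1, 150809713 to 150876599), changed little. Its levels were 44.9 and 48.5 CPM in Con, 46.6 and 48.2 CPM in miR3124, 49.4 and 53.0 CPM in miR200b, 42.7 and 38.5 CPM in miR92b_in, and 44.3 and 42.8 CPM in MIX. The miR92b_in and MIX libraries lay below both Con libraries, and the miR200b libraries above them. The difference passed the test in miR92b_in, where ARNT was 1.15-fold lower than in Con (log2 fold change -0.20 ± 0.07 SE, edgeR adjusted p = 0.0138). That call was lost without Con replicate 2 (-0.15, adjusted p = 0.188), without miR92b_in replicate 2 (-0.13, adjusted p = 0.268) and with DESeq2 (-0.20, adjusted p = 0.0673). The value in miR200b was 0.14 ± 0.07 (adjusted p = 0.0929). Neighbouring groups in the order of ARNT levels were not distinguished by the test.

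AHRR encodes a repressor that competes with AHR for ARNT and is itself an AHR target (chromosome 5, 321714 to 438285). It was measured at 24.0 and 27.3 CPM in Con, 33.3 and 37.3 CPM in miR3124, 14.4 and 15.4 CPM in miR200b, 22.3 and 19.1 CPM in miR92b_in, and 17.0 and 16.6 CPM in MIX. The 5 groups did not overlap one another, with miR3124 on top and miR200b at the bottom. Against Con, AHRR was 1.38-fold higher in miR3124 (log2 fold change 0.47 ± 0.09 SE, edgeR adjusted p = 1.13e-05) and 1.72-fold lower in miR200b (-0.78 ± 0.10, adjusted p = 1.02e-08). It was also lower in MIX (-0.61 ± 0.10, adjusted p = 6.46e-07).

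The inhibitor of miR-92b gave a smaller AHRR difference, 1.24-fold lower than Con (log2 fold change -0.31 ± 0.09 SE, edgeR adjusted p = 0.00655). This call was lost without Con replicate 2 (-0.22, adjusted p = 0.157) and without miR92b_in replicate 2 (-0.20, adjusted p = 0.205). Between the extremes, AHRR was 2.37-fold lower in miR200b than in miR3124 (adjusted p = 1.65e-15). MIX and miR200b, the neighbours at the low end, were not distinguished (0.17, 95% confidence interval -0.05 to 0.38). The AHRR locus lies within a readthrough transcript with PDCD6 in RefSeq, and counts from the shared exons cannot be assigned to either.

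The receptor and its repressor moved in opposite directions in miR200b. For every 100 AHR reads there were 20.8 and 25.0 AHRR reads in Con and 28.9 and 32.9 in miR3124. In miR200b there were 8.97 and 9.48 AHRR reads per 100 AHR reads. MIX lay between, at 14.1 and 13.1, and miR92b_in at 21.6 and 17.1. These ratios are descriptive and no test was run on them.

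CYP1A1, the classical inducible AHR target (chromosome 15, 74719542 to 74725528), had few reads in each library. There were 21 and 20 counts in Con, 29 and 42 in miR3124, 50 and 69 in miR200b, 21 and 26 in miR92b_in, and 41 and 43 in MIX. As levels these were 1.20 and 1.19 CPM in Con, 1.98 and 2.38 CPM in miR3124, 3.74 and 3.97 CPM in miR200b, 1.23 and 1.42 CPM in miR92b_in, and 2.27 and 2.31 CPM in MIX. The miR200b libraries were the highest of the 10 and the Con libraries the lowest, with no overlap between those groups.

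CYP1A1 was 3.21-fold higher in miR200b than in Con (log2 fold change 1.68 ± 0.29 SE, 95% confidence interval 1.10 to 2.26, edgeR adjusted p = 3.98e-06). The call held in all 17 alternative analyses, with values of 1.64 to 1.72. It was 1.82-fold higher in miR3124 (0.87 ± 0.31, adjusted p = 0.0182) and 1.91-fold higher in MIX (0.93 ± 0.30, adjusted p = 0.0111). These calls were lost in several alternatives. With DESeq2 the adjusted p was 0.0728 in miR3124 and 0.0514 in MIX. Without Con replicate 1 it was 0.0653 in miR3124 and 0.0506 in MIX, without Con replicate 2 it was 0.0645 and 0.0504, and without miR3124 replicate 2 the miR3124 value was 0.72 (adjusted p = 0.145). In miR92b_in the interval ran from -0.53 to 0.83 around 0.15, and a change within it was not detectable at this depth. Among the groups in order, miR200b exceeded MIX (adjusted p = 0.0158), MIX and miR3124 overlapped, and miR3124 exceeded miR92b_in (adjusted p = 0.0396).

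CYP1B1, the cytochrome P450 of this family that is more often found outside the liver (chromosome 2, 38067509 to 38076151), was measured at 48.1 and 39.2 CPM in Con and 46.4 and 46.8 CPM in miR3124. It reached 62.1 and 65.3 CPM in miR200b, and had 32.9 and 33.7 CPM in miR92b_in and 35.1 and 36.4 CPM in MIX. The Con libraries were the widest pair for this gene and enclosed the miR3124 pair, while miR200b lay above and miR92b_in and MIX below them. CYP1B1 was 1.46-fold higher in miR200b than in Con (log2 fold change 0.54 ± 0.07 SE, edgeR adjusted p = 5.31e-09). Its 3′ untranslated region holds the miR-200b-3p words noted above, and here too the level was higher, not lower, with that mimic. Whether the words have any effect on CYP1B1 was not tested. CYP1B1 was 1.31-fold lower in miR92b_in (-0.39 ± 0.07, adjusted p = 2.95e-05) and 1.22-fold lower in MIX (-0.29 ± 0.07, adjusted p = 0.000955).

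The CYP1B1 differences depended on which Con library was kept. Without Con replicate 1 the edgeR value was -0.24 in miR92b_in (adjusted p = 0.0320) and -0.13 in MIX (adjusted p = 0.236), and in miR3124 it was 0.25 (adjusted p = 0.0125) in place of 0.09 (adjusted p = 0.296). The value in miR200b stayed between 0.41 and 0.70 in all alternatives. In the order of levels, miR200b exceeded miR3124 (adjusted p = 1.69e-07), and MIX and miR92b_in were not distinguished (0.10, 95% confidence interval -0.05 to 0.26).

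TIPARP, an ADP-ribosyltransferase that is induced by AHR and acts to shorten its activity (chromosome 3, 156674590 to 156706770), was higher in each of the other 4 groups than in Con. It was measured at 108 and 100 CPM in Con, 124 and 118 CPM in miR3124, 115 and 120 CPM in miR200b, 126 and 125 CPM in miR92b_in, and 126 and 134 CPM in MIX. All 8 libraries of these groups lay above both Con libraries. The log2 fold change was 0.21 ± 0.05 (SE) in miR3124 (edgeR adjusted p = 0.000254), 0.27 ± 0.05 in miR92b_in (adjusted p = 1.10e-05) and 0.32 ± 0.05 in MIX (adjusted p = 1.96e-07).

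In miR200b the TIPARP difference was the smallest of the 4, 0.18 ± 0.05 (edgeR adjusted p = 0.00295). It was lost without Con replicate 2 (0.12, adjusted p = 0.120) and without miR200b replicate 2 (0.15, adjusted p = 0.0564). The 4 comparisons use the same Con libraries, so they are not independent of one another. Taken in order of level, the neighbours among the groups above Con were not distinguished by the test. Groups further apart were, as TIPARP was called higher in MIX than in miR200b and in miR3124, with values and limits given below.

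**Figure D2:**
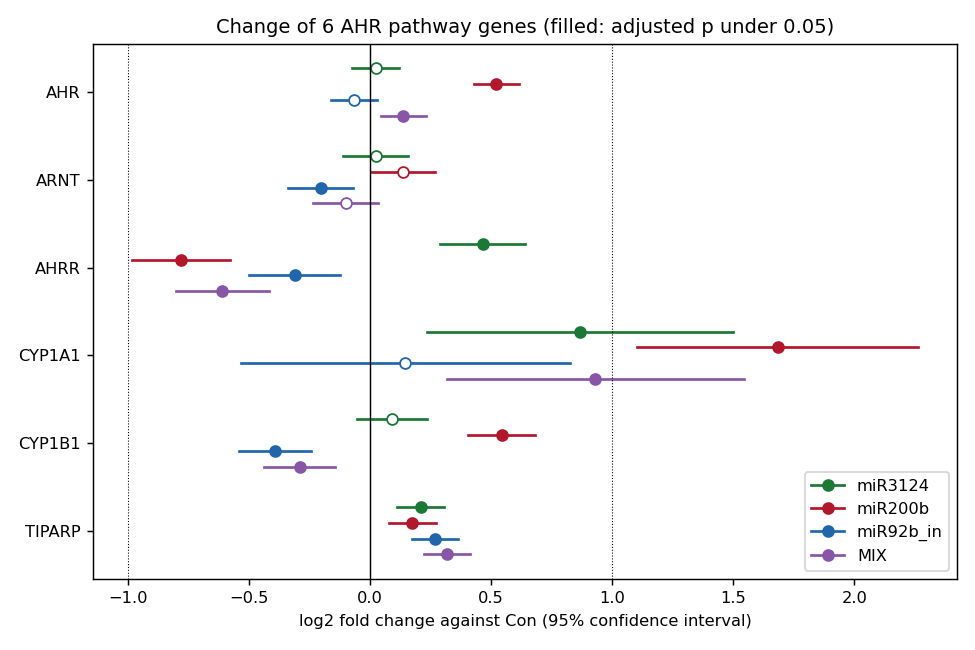
Log2 fold change against Con (horizontal axis) with its 95% confidence interval for 6 members in miR3124, miR200b, miR92b_in and MIX. Filled points have an adjusted p under 0.05 and dotted lines mark a fold of 2. CYP1A1 in miR200b, at 1.68, is the filled point beyond a fold of 2, AHRR lies on both sides of 0, and all 4 TIPARP points are to the right of 0.

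Counted over the 6 members tested, miR3124 had 3 higher and 0 lower than Con, where 25.7% of all tested genes were called higher and 25.3% lower. In miR200b 4 were higher and 1 was lower, beside 21.4% and 19.1% of all genes. In miR92b_in 1 was higher and 3 were lower, beside 17.5% and 18.2%. MIX had 3 higher and 2 lower, beside 21.5% and 21.1%. With a fold of at least 2 added to the call, CYP1A1 in miR200b was the only member in any of the 4 comparisons, and the share of all genes was 8.13% in miR3124, 4.88% in miR200b, 1.91% in miR92b_in and 4.67% in MIX. The median log2 fold change of the 6 was 0.15, 0.35, -0.13 and 0.02 in the same order, beside 0.00, -0.01, -0.01 and 0.00 over all genes tested. With 6 genes, these shares describe the members and carry no test.

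The other 3 members could not be compared. ALDH3A1, an aldehyde dehydrogenase (chromosome 17, 19737984 to 19748298), had 1 count in a miR3124 library, 1 in a MIX library and 0 in the other 8. AKR1C1, an aldo-keto reductase that also metabolizes steroids (chromosome 10, 4963415 to 4983283), had 0 to 7 counts. AKR1B10, an aldo-keto reductase that reduces retinal and other aldehydes (chromosome 7, 134527567 to 134541412), had 0 to 7 counts, with the 7 in miR3124 replicate 1 and 1 in replicate 2. A count of 0 allows up to 3 counts, which is 0.162 to 0.221 CPM in these libraries, and this limit covers counting error only. AKR1C1 is nearly identical to AKR1C2 and less similar to AKR1C3, so reads may be split, mainly between the first pair. AKR1C2 had 0 to 0.233 CPM, and AKR1C3, which passed the filter, had 0.418 to 1.19 CPM.

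The mixture was next set beside each agent alone. Against miR3124, MIX had 4 of 6 members called, 2 in each direction, where 49.1% of all tested genes were called. AHRR was 2.11-fold lower in MIX than in miR3124 (log2 difference -1.08 ± 0.09 SE, edgeR adjusted p = 6.67e-14) and CYP1B1 1.30-fold lower (-0.38 ± 0.07, adjusted p = 1.90e-05). AHR (0.11, adjusted p = 0.0381) and TIPARP (0.11, adjusted p = 0.0475) were higher. The AHR and TIPARP calls were lost with library totals, DESeq2, no filter and the stricter filter on counts, with values of 0.10 to 0.12. They were also lost without miR3124 replicate 2 (0.11 for AHR and 0.08 for TIPARP) and without MIX replicate 2 (0.08 and 0.07). The AHR call was lost without miR3124 replicate 1 (0.13, adjusted p = 0.0741). The TIPARP call was lost without miR92b_in replicate 1 (0.11, adjusted p = 0.0564) or replicate 2 (0.11, adjusted p = 0.0537).

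Against miR200b, 5 of 6 members were called in MIX, 1 higher and 4 lower, where 38.6% of all genes were called. CYP1B1 was 1.78-fold lower in MIX than in miR200b (log2 difference -0.83 ± 0.07 SE, edgeR adjusted p = 8.16e-14) and AHR 1.30-fold lower (-0.38 ± 0.05, adjusted p = 1.69e-09). CYP1A1 was 1.68-fold lower (-0.75 ± 0.25, adjusted p = 0.0158) and ARNT 1.18-fold lower (-0.24 ± 0.07, adjusted p = 0.00310). TIPARP was 1.11-fold higher (0.15 ± 0.05, adjusted p = 0.0119). Leaving out miR200b replicate 2 ended the CYP1A1 (-0.71, adjusted p = 0.0970) and ARNT (-0.19, adjusted p = 0.0897) calls. Leaving out MIX replicate 2 ended the CYP1A1 (-0.77, adjusted p = 0.0566) and TIPARP (0.10, adjusted p = 0.221) calls. The CYP1A1 call was also lost without MIX replicate 1 (-0.74, adjusted p = 0.0630) and with DESeq2 (-0.75, adjusted p = 0.0914), and the TIPARP call without miR200b replicate 1 (0.12, adjusted p = 0.112).

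Against miR92b_in, 3 of 6 members were called in MIX, where 39.6% of all genes were called. AHR was 1.15-fold higher in MIX (log2 difference 0.20 ± 0.05 SE, edgeR adjusted p = 0.000394). CYP1A1 was 1.72-fold higher (0.78 ± 0.30, adjusted p = 0.0315) and AHRR 1.23-fold lower (-0.30 ± 0.10, adjusted p = 0.0126). The AHRR call was lost without miR92b_in replicate 1 (-0.18, adjusted p = 0.262), without MIX replicate 2 (-0.28, adjusted p = 0.0714) and with DESeq2 (-0.30, adjusted p = 0.0655). The CYP1A1 call was lost with DESeq2 (0.79, adjusted p = 0.113) and without any of the 4 libraries compared, with values of 0.68 to 0.90.

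The MIX difference from Con was also compared with the sum of the 3 single differences. AHR was 0.34 ± 0.09 (SE) below the sum on the log2 scale (edgeR adjusted p = 0.00555), with a sum of 0.48 and a MIX value of 0.14. CYP1B1 was 0.53 ± 0.14 below it (adjusted p = 0.00444), with a sum of 0.24 and a MIX value of -0.29. TIPARP was 0.33 ± 0.10 below it (adjusted p = 0.00795), and CYP1A1 1.77 ± 0.62 below it (adjusted p = 0.0347), with a sum of 2.70 and a MIX value of 0.93.

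For AHRR the sum (-0.62) and the MIX value (-0.61) differed by 0.01, with a 95% confidence interval of -0.36 to 0.39, and for ARNT the difference was -0.06 (interval -0.32 to 0.21). So 4 of 6 members were called, all below the sum, where 21.7% of all tested genes departed in either direction. None was called without Con replicate 2, when the edgeR value was -0.25 for AHR (adjusted p = 0.147), -0.25 for CYP1B1 (adjusted p = 0.334), -0.22 for TIPARP (adjusted p = 0.232) and -1.75 for CYP1A1 (adjusted p = 0.124). The CYP1A1 call was lost as well without Con replicate 1 (-1.78, adjusted p = 0.121), miR3124 replicate 2 (-1.62, adjusted p = 0.0838), miR200b replicate 2 (-1.71, adjusted p = 0.0606) or miR92b_in replicate 2 (-1.65, adjusted p = 0.0777). The Con libraries enter this comparison through each of the differences. If each agent was at a lower concentration in MIX than alone, dose and combination cannot be told apart.

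**Figure D3:**
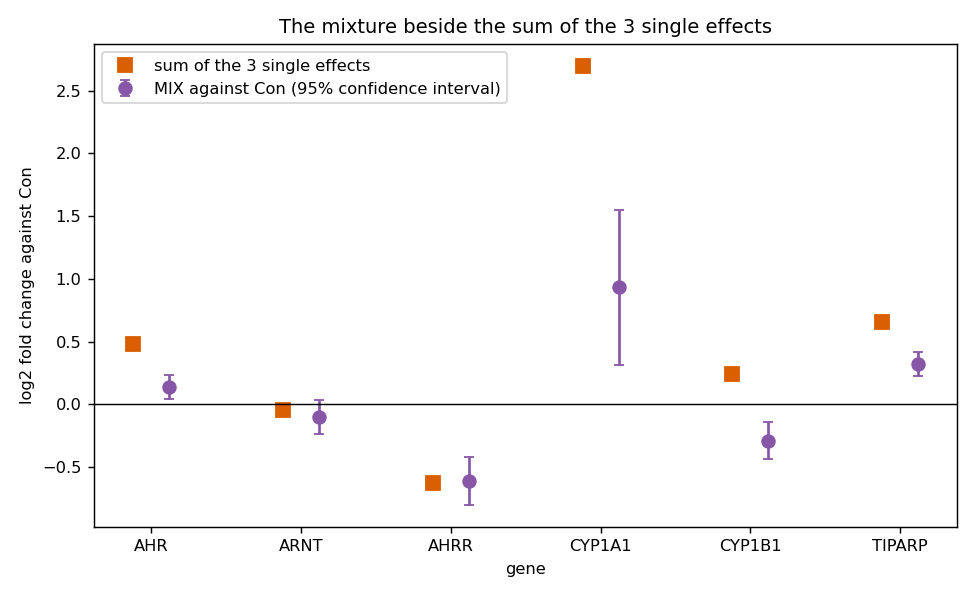
Log2 fold change against Con (vertical axis) for 6 members. Squares are the sum of the 3 single differences, and circles are MIX against Con with the 95% confidence interval. For AHRR and ARNT the square lies within the interval of MIX, and for AHR, CYP1A1, CYP1B1 and TIPARP it lies above it.

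The proteins that hold or assist AHR were examined as a list of 12 genes, all of which passed the filter. In miR3124 5 were higher and 6 lower than Con, in miR200b 2 and 4, in miR92b_in 1 and 4, and in MIX 1 and 6. The share called in either direction was 91.7% in miR3124, 50% in miR200b, 41.7% in miR92b_in and 58.3% in MIX. Over all genes tested these shares were 51%, 40.6%, 35.7% and 42.7%, and they are the background for each list that follows. The median log2 fold change of the list was -0.04, -0.05, -0.03 and -0.14 in that order, against 0.00, -0.01, -0.01 and 0.00 over all genes tested. The HSP90 chaperones moved most in miR200b. HSP90AA1 fell from 2989 and 2921 CPM in Con to 1703 and 1514 CPM in miR200b (log2 fold change -0.88 ± 0.04 SE, edgeR adjusted p = 1.07e-24). HSP90AB1 fell from 2144 and 2131 CPM to 1236 and 1131 CPM (-0.85 ± 0.03, adjusted p = 3.03e-25). Neither pair overlapped the Con pair.

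Both were lower in miR3124 and MIX too, with log2 fold changes of -0.56 and -0.64 for HSP90AA1 and of -0.13 and -0.30 for HSP90AB1. Among the coactivators, NCOA3 (0.69 ± 0.05) and NCOA2 (0.45 ± 0.08) were higher in miR3124, whereas NCOA2 was lower in miR92b_in (-0.30 ± 0.09) and MIX (-0.34 ± 0.09). CUL4B, the scaffold of a ubiquitin ligase that AHR can join, was lower in miR200b (-0.28 ± 0.04), miR92b_in (-0.22 ± 0.04) and MIX (-0.20) and higher in miR3124 (0.26). The nuclear receptor corepressor NRIP1 was lower in miR3124 (-0.37 ± 0.04) and higher in miR92b_in (0.23 ± 0.04). The kinase SRC was lower in miR3124 (-0.26 ± 0.06), miR92b_in (-0.17 ± 0.06) and MIX (-0.30 ± 0.06).

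Of 16 other genes known as AHR targets, 9 passed the filter. In miR3124 5 were higher and 2 lower than Con, in miR200b 3 and 1, in miR92b_in 2 and 4, and in MIX 4 and 3. The share called was 77.8%, 44.4%, 66.7% and 77.8%, beside 51%, 40.6%, 35.7% and 42.7% of all genes, so in miR200b it was close to the background. The median log2 fold change of the 9 was 0.16, 0.05, 0.05 and 0.08. SERPINB2, an inhibitor of plasminogen activators, rose from 38.4 and 31.6 CPM in Con to 153 and 166 CPM in miR200b (log2 fold change 2.19 ± 0.07 SE, edgeR adjusted p = 2.69e-30), and it was higher in miR92b_in (0.85 ± 0.07) and MIX (0.96 ± 0.07). EREG, the EGF receptor ligand epiregulin, had 2.35 and 2.86 CPM in Con and 7.85 and 7.31 CPM in miR200b (1.54 ± 0.20, adjusted p = 1.81e-08), and was higher in MIX (1.05 ± 0.21). The cell cycle inhibitor CDKN1A was higher in miR200b (0.81 ± 0.05) and miR3124 (0.16 ± 0.05) and lower in miR92b_in (-0.53 ± 0.05).

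The targets that rose in miR3124 were led by CYP2S1, an extrahepatic cytochrome P450 (log2 fold change 0.97 ± 0.18 SE), and the cell cycle inhibitor CDKN1B (0.85 ± 0.06). CYP2S1 was higher in MIX too (0.56 ± 0.19), and CDKN1B was lower in miR92b_in (-0.24 ± 0.06) and MIX (-0.21 ± 0.06). The amino acid transporter SLC7A5 was lower in miR3124 (-0.60 ± 0.04), miR92b_in (-0.34 ± 0.04) and MIX (-0.44 ± 0.04). NQO1, a quinone reductase controlled by both AHR and NRF2, was named outside the rule after its values were seen. It had 123 and 120 CPM in Con and 81.8 and 82.0 CPM in miR200b, so its difference in miR200b (-0.57 ± 0.05, edgeR adjusted p = 8.40e-14) was opposite in sign to those of CYP1A1 and CYP1B1. In miR3124 NQO1 was higher, at 164 and 157 CPM (0.40 ± 0.04, adjusted p = 1.43e-10). Its values were 0.13 in miR92b_in (adjusted p = 0.0193) and -0.18 in MIX (adjusted p = 0.00125). CYP1A2, UGT1A1, UGT1A6, GSTA1, GSTA2, IDO1 and VAV3 did not pass the filter. UGT1A1 and UGT1A6 were at 0 counts in all 10 libraries, and as these overlapping genes share exons, how the reads of the shared exons were assigned is not known.

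**Figure D4:**
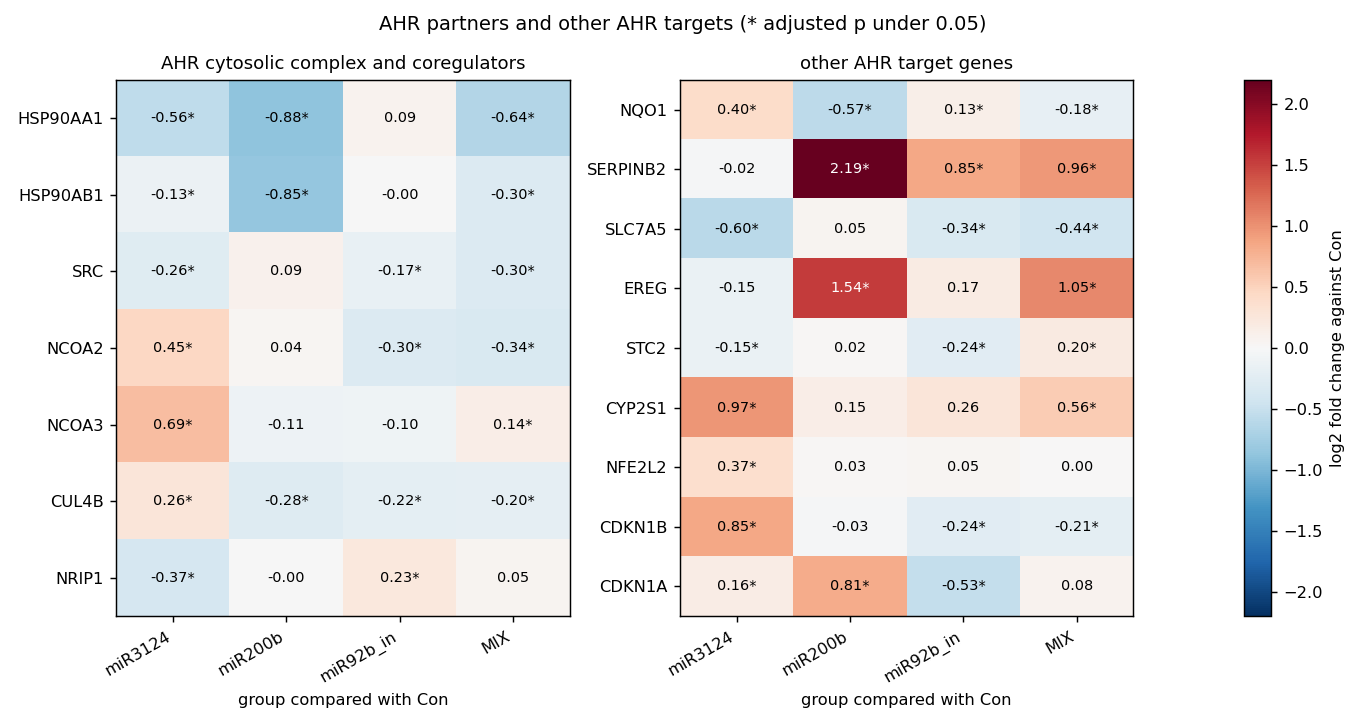
Log2 fold change against Con, written and coloured, of the 7 genes named from the list of the AHR complex and its coregulators (left) and 9 other AHR targets (right) in miR3124, miR200b, miR92b_in and MIX. An asterisk marks an adjusted p under 0.05. HSP90AA1 and HSP90AB1 are lowest in miR200b, and SERPINB2 and EREG are highest there.

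The AHR complex, the targets and 9 further lists of related genes held 170 genes, of which 120 passed the filter. Called against Con were 78 in miR3124 (43 higher and 35 lower), 63 in miR200b (32 and 31), 54 in miR92b_in (21 and 33) and 62 in MIX (23 and 39). These are 65%, 52.5%, 45% and 51.7% of the 120, beside 51%, 40.6%, 35.7% and 42.7% of all genes tested. The median log2 fold change of the 120 was 0.10, 0.01, -0.06 and -0.07. In miR200b the count was 41 without Con replicate 2.

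Among 10 tested bHLH-PAS proteins, the family of AHR and ARNT, 6 were called in miR3124 and 5 in each of the others, which is 60% and 50%. EPAS1, a hypoxia factor that also pairs with ARNT, was higher in all 4 groups than in Con, with log2 fold changes of 0.45 in miR3124, 0.24 in miR200b, 0.24 in miR92b_in and 0.48 in MIX. ARNT2 was lower in miR200b (-0.60 ± 0.14 SE) and higher in miR3124 (0.38 ± 0.12), and SIM2 was lower in miR3124 (-0.57 ± 0.11) and MIX (-0.27 ± 0.11). The clock gene NPAS2 was lower in miR3124 (-0.51 ± 0.12) and miR200b (-0.34 ± 0.12) and higher in miR92b_in (0.39 ± 0.11).

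The kynurenine route, which makes AHR ligands from tryptophan, had few or no reads at its first step. IDO1 had 0 to 0.221 CPM, and TDO2 and IDO2 were at 0 counts in all 10 libraries. Of the 7 genes that passed the filter, 2 were called in miR3124, 2 in miR200b, 3 in miR92b_in and 3 in MIX. These are 28.6%, 28.6%, 42.9% and 42.9%, which is below the share of all genes in miR3124 (51%) and miR200b (40.6%) and near it in MIX (42.7%). AFMID, which forms kynurenine from its formyl precursor, was lower in miR200b (log2 fold change -0.49 ± 0.13 SE), and the transaminase KYAT1 was lower in miR92b_in (-0.43 ± 0.15) and MIX (-0.56 ± 0.15) and higher in miR3124 (0.44 ± 0.14).

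Relatives of ALDH3A1, AKR1C1 and AKR1B10 were examined in the same way. Of 10 other aldo-keto reductases, 6 passed the filter, and 3, 1, 1 and 2 of them were called in miR3124, miR200b, miR92b_in and MIX (50%, 16.7%, 16.7% and 33.3%). AKR7A2, an aflatoxin aldehyde reductase, was lower in miR3124 (log2 fold change -0.44 ± 0.08 SE), miR92b_in (-0.53 ± 0.08) and MIX (-0.40 ± 0.08). Of 13 other aldehyde dehydrogenases, 10 passed, and 8, 6, 6 and 6 were called (80%, 60%, 60% and 60%). Of those called, 4 were higher and 4 lower in miR3124, 4 and 2 in miR200b, and 0 and 6 in both miR92b_in and MIX. ALDH2, the mitochondrial enzyme of ethanol metabolism, was higher in miR3124 (1.15 ± 0.21), and ALDH3B1 was higher in miR200b (0.66 ± 0.08) and miR3124 (0.23 ± 0.08) and lower in miR92b_in (-0.45 ± 0.09) and MIX (-0.23 ± 0.08).

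Of 29 phase I enzymes, 18 did not pass the filter. The 11 that passed had 4 higher and 3 lower than Con in miR3124, 3 and 2 in miR200b, 1 and 3 in miR92b_in, and 4 and 3 in MIX, which is 63.6%, 45.5%, 36.4% and 63.6% called. EPHX1, the microsomal epoxide hydrolase that acts after CYP1A1 and CYP1B1 on polycyclic hydrocarbons, was higher in miR3124 (log2 fold change 0.47), miR200b (0.57 ± 0.08 SE) and MIX (0.57 ± 0.08) and lower in miR92b_in (-0.28 ± 0.09). The carbonyl reductase CBR3 was lower in miR200b (-1.01 ± 0.11) and MIX (-0.65 ± 0.10).

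The conjugating enzymes of phase II, 18 of 30 of which passed, had 10 called in miR3124 (7 higher and 3 lower), 11 in miR200b (7 and 4), 4 in miR92b_in (1 and 3) and 5 in MIX (2 and 3). As shares these are 55.6%, 61.1%, 22.2% and 27.8%, the last pair below the 35.7% and 42.7% of all genes. Examples were the glutathione transferases GSTO1, higher in miR3124 (log2 fold change 0.44 ± 0.04 SE), miR200b (0.12 ± 0.05) and MIX (0.15 ± 0.04), and GSTM1, lower in miR200b (-0.48 ± 0.14) and MIX (-0.55 ± 0.14). GSTM genes are close copies, and their reads may be shared.

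Export pumps and xenobiotic receptors complete the lists of the xenobiotic response. Of 10 tested transporters of phase III, 6 were called in miR3124, 6 in miR200b, 3 in miR92b_in and 6 in MIX, which is 60%, 60%, 30% and 60% beside 51%, 40.6%, 35.7% and 42.7% of all genes. Of those called, 5 were higher and 1 lower in miR3124, 2 and 4 in miR200b, 1 and 2 in miR92b_in, and 5 and 1 in MIX. ABCC3, which exports conjugates, was higher in miR3124 (log2 fold change 1.46 ± 0.11 SE), miR200b (1.07 ± 0.12) and MIX (0.96 ± 0.11) and lower in miR92b_in (-0.73 ± 0.14). ABCC1 (-0.51 ± 0.11) and ABCG2 (-0.38 ± 0.14) were lower in miR200b. Of 8 tested nuclear receptors, 5, 2, 1 and 4 were called in the same order of groups (62.5%, 25%, 12.5% and 50%). VDR, the vitamin D receptor, was higher in miR3124 (1.27 ± 0.10), miR200b (1.32 ± 0.10) and MIX (1.71 ± 0.09), and PPARD, a fatty acid receptor, was lower in miR3124 (-1.14 ± 0.06) and MIX (-0.34 ± 0.05) and higher in miR200b (0.18 ± 0.05).

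The NRF2 pathway shares targets with AHR, and 17, 16, 19 and 14 of its 24 genes were called in miR3124, miR200b, miR92b_in and MIX, which is 70.8%, 66.7%, 79.2% and 58.3% beside 51%, 40.6%, 35.7% and 42.7% of all genes. The calls went in both directions, with 7 higher and 10 lower in miR3124, 6 and 10 in miR200b, 11 and 8 in miR92b_in, and 5 and 9 in MIX. The median log2 fold change of the 24 was -0.09, -0.02, 0.04 and -0.10 in that order. HMOX1 was lower in miR200b (log2 fold change -1.53 ± 0.11 SE), MIX (-0.76 ± 0.09) and miR3124 (-0.32 ± 0.09) and higher in miR92b_in (1.16 ± 0.08), and its repressor BACH1 was higher in all 4 groups, with 0.83 ± 0.05 in miR200b.

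The groups also differed in epithelial and mesenchymal markers. The summed level of 11 basal and epithelial markers was 1827 and 1829 CPM in Con, 2411 and 2429 CPM in miR3124, 3118 and 3170 CPM in miR200b, 1872 and 1918 CPM in miR92b_in, and 3165 and 3174 CPM in MIX. Most of this sum is KRT8, KRT18 and ITGA6. Of the 8 tested, 4 were higher and 1 lower in miR3124, 7 and 1 in miR200b, 2 and 1 in miR92b_in, and 6 and 1 in MIX. EPCAM and CDH1, near 0 in Con, were not so in miR200b and MIX. The mean of EPCAM was 0.289 CPM in Con, 10.2 CPM in miR200b and 5.48 CPM in MIX. That of CDH1 was 0.146, 9.97 and 2.24 CPM in the same order. KRT19 went against the sum in miR3124, where it fell by 3.40 on the log2 scale, and EPCAM, CDH1 and KRT15 were not called there. KRT19 was lower in MIX too, with a mean of 8.20 CPM in Con and 2.62 CPM in MIX. NGFR went against the sum in miR200b, with 1.73 CPM in Con and 0.802 CPM in miR200b. The sum of 11 mesenchymal markers was 7335 and 7356 CPM in Con, 4439 and 4563 CPM in miR3124, 4622 and 4677 CPM in miR200b, 6840 and 6987 CPM in miR92b_in, and 4983 and 5002 CPM in MIX. VIM and FN1 make up most of it. In miR3124 VIM fell from a mean of 3800 to 813 CPM, while 2 of the 6 tested were higher, COL1A1 (log2 fold change 0.99) and PDGFRB (1.95), and the median of the 6 was 0.25. In miR200b 4 were lower, FN1 (-1.21) among them, and COL1A1 was higher (1.62). In miR92b_in 1 was higher and 3 were lower, and in MIX 2 and 3. The part of these shifts in the results for the AHR genes was not tested. Of 10 markers of immune and endothelial cells, 3 passed the filter (CD14, CD68 and CDH5) and 2 were at 0 in every library. They summed to 27.53 and 29.01 CPM in Con, 39.7 and 41.0 CPM in miR3124, 17.9 and 20.8 CPM in miR200b, 40.4 and 42.8 CPM in miR92b_in, and 25.3 and 27.0 CPM in MIX.

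For the members whose group means spanned at least 1 on the log2 scale, the genes with the most similar pattern were sought among 2422 genes that also spanned at least that much. Likeness was the Pearson correlation of log2 CPM over 10 libraries, which fall into 5 pairs, and is given as a description. For AHRR these genes were CCDC80 (r = 0.979), a secreted matrix protein, and REEP2 (r = 0.979), a protein of the endoplasmic reticulum. CCDC80 had mean levels of 74.7 CPM in Con, 111 CPM in miR3124, 38.1 CPM in miR200b, 66.8 CPM in miR92b_in and 46.7 CPM in MIX, the same order of groups as AHRR. For CYP1A1 they were SLC46A3 (r = 0.987), a lysosomal transporter, and ARID3B (r = 0.975), a DNA-binding protein. SLC46A3 had mean levels of 9.32 CPM in Con, 14.3 CPM in miR3124, 19.1 CPM in miR200b, 9.65 CPM in miR92b_in and 14.9 CPM in MIX.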

How the data were processed

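BEAS2B mRNA libraries were prepared with a directional kit and sequenced in pairs of reads. Per the labels and the submitters' processing notes, the authors trimmed the reads and mapped them to GRCh38 with TopHat; the annotation, the counting tool and its strand setting are not given in the sources used here. The deposited tables hold raw counts of reads on genes, and the authors' FPKM normalization is not in them. Of 58173 rows per library, 5771 repeat a symbol and were summed.

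Genes were filtered with filterByExpr, normalized by RLE (factors 0.985 to 1.016) and tested in 1 fit of all 10 libraries with edgeR 4.0.16 (quasi-likelihood, limma 3.58.1, R 4.3.3), with no covariates. P-values were adjusted by Benjamini-Hochberg over all 14884 genes tested, and a call means an adjusted p under 0.05. CPM use the normalized library size, and errors are SE of the fit. The script was tested on simulated data. Alternatives were TMM, library totals, DESeq2 1.42.0, only the compared groups, no filter, a minimum of 10 counts per library, leaving out each library in turn and a replicate block. The members and gene lists were chosen with earlier results of these data known. Besides the members, up to 3 genes per list and comparison with the largest called difference and a mean of at least 1 CPM could be named, and some of these are not reported here. Sequences were read from RefSeq (GRCh38.p14) and GENCODE v29.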

Additional observations from a re-analysis of the deposited data

How the results depend on the processing

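Over all alternatives, 753 of the members' values kept their side of the threshold, 55 lost it, 1 gained it and none of the called values reversed. Of the counts of calls, 186 stayed within 1.5 times and 17 moved. With DESeq2, library totals, no filter or at least 10 counts in every library, 2 members in place of 4 were called in MIX against miR3124, and with DESeq2 1 in place of 3 in MIX against miR92b_in. Leaving out 1 library at a time gave 2 to 4 members called in miR92b_in, 3 to 5 in MIX against Con, 2 to 4 in MIX against miR3124, 3 to 5 in MIX against miR200b, 1 to 3 in MIX against miR92b_in, and 0 to 4 that departed from the sum of single effects. For the related genes in miR200b it gave 41 to 60, and 63 with all libraries. A group left with 1 library was assumed to vary like the others. The cause of these changes was not tested, beyond the smaller number of libraries.

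Libraries of different groups share only a replicate number: differences between replicates 1 and 2 correlated between groups at -0.0625 to 0.0613 over 10419 genes. With the replicate block, 3, 5, 4 and 5 members were called in miR3124, miR200b, miR92b_in and MIX against Con, as without it. At 20 to 69 counts, depth limits what can be said of CYP1A1, and ALDH3A1, AKR1C1 and AKR1B10 allow no comparison.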
